A study of Mus musculus with 20 samples.

Results

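The 10 genes described here are the stress keratins and cornified envelope genes of the mouse corneal epithelium, chosen by gene symbol from the 24552 genes of the deposited 20-library table: the keratins *Krt6a*, *Krt6b*, *Krt16* and *Krt17*, the envelope precursors *Sprr1a*, *Sprr1b*, *Sprr3* and *Ivl*, the crosslinking enzyme *Tgm1* and the scaffold protein *Ppl*. Of these, 8 passed the filter on low expression and were tested among 11288 genes, and *Sprr1b* and *Sprr3* did not. The libraries came from naïve, wild-type female C57BL/6J mice, 5 per age group, with the scraped epithelium of both corneas of 1 animal in each library. The groups were young (2 to 3 months), 12-month (12 to 13 months), 18-month (18 to 19 months) and 24-month (24 to 25 months), and the 15 libraries of the 3 older groups together are called aged. The mice were bought, aged in house or received from the National Institute of Aging, and the source of the animals in each group was not given in the sources used here, so source and age cannot be told apart.

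Keratins 6, 16 and 17 are intermediate filament proteins that stratified epithelia switch on when they are wounded, stressed or hyperproliferative, with the type II proteins encoded by *Krt6a* and *Krt6b* pairing with the type I proteins encoded by *Krt16* and *Krt17*. The cornified envelope is the protein shell laid down under the plasma membrane of terminally differentiated keratinocytes: involucrin and periplakin form an early scaffold, small proline-rich proteins act as cross-bridges and transglutaminase 1 joins them. The corneal epithelium is stratified but does not normally cornify, and envelope genes are studied there as markers of squamous differentiation in a dry or irritated ocular surface.

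The promoter sequences of the envelope precursors are shown because these 4 genes lie in 1 cluster on chromosome 3. RefSeq windows of GRCm38.p6, which ran from 250 bases before to 50 bases after the start of transcription, were given for 5 of the 10 genes (these 4 and *Tgm1*). Only bases upstream of every annotated transcript of the gene are printed, 5′ to 3′, with motif matches in capitals.
Sprr1a, chr3:92485896-92486131, minus strand: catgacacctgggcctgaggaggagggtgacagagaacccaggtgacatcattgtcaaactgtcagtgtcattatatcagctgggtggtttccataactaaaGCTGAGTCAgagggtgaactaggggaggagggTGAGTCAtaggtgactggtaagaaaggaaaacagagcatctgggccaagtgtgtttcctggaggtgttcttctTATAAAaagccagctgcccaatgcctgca
Sprr1b, chr3:92438818-92439029, minus strand: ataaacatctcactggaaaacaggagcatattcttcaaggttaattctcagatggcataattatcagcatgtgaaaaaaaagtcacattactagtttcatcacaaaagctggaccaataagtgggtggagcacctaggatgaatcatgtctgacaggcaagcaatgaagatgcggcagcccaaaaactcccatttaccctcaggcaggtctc
Sprr3, chr3:92458721-92458970, minus strand: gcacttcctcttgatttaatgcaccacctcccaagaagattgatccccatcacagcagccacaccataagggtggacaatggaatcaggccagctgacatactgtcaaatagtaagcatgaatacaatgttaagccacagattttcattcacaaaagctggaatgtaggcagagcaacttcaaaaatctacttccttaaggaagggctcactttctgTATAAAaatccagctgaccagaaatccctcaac
Ivl, chr3:92573791-92573985, minus strand: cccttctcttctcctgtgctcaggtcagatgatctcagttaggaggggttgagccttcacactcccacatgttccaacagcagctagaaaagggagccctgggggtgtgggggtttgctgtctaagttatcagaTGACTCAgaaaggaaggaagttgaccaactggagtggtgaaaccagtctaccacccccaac

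Capitals in the *Sprr1a* sequence mark, from the left, an AP-1 motif that overlaps an antioxidant response element, a second AP-1 motif and a TATA box. Counted from the start of transcription, the AP-1 matches began at -146 and -116, the antioxidant response element at -148 and the TATA box at -43. *Ivl* had 1 AP-1 match on the opposite strand, beginning at -116. *Sprr1b* and *Sprr3* had a TATA box, at -30 and -33, and no AP-1 match in the window. The TATA boxes of *Sprr1b* and *Ivl* (at -29) lie in bases that are not printed. *Tgm1*, read at its first start site, had no AP-1 match and had 2 GC boxes.

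The motifs were searched on both strands as TGAGTCA for AP-1, TATAAA for the TATA box, GGGCGG for the GC box, TGACNNNGC for the antioxidant response element and CAGGAAG for the ETS core, and the ETS core had 0 matches in these windows. Over 27025 promoters, 5.2% held the AP-1 motif, 14.2% the TATA box, 35.9% the GC box, 12.5% the antioxidant response element and 13.0% the ETS core. In the 250 bases before the start, the *Sprr1a* sequence was 55.9% identical to that of *Sprr1b* and 51.0% identical to that of *Sprr3*. A match is a description of the letters. Binding was not measured, and a link between motifs and expression was not tested.

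Reads were counted on genes at 6699383 to 10762360 per library, and the 10 genes took between 1.56% and 2.41% of them. Values below are normalized counts, which are reads divided by the size factor of the library, and they were not divided by transcript length, so levels are compared between ages and not between genes. All 8 listed corneal epithelium markers were tested and 0 were called in any comparison by limma or by voom. At an unadjusted limma p under 0.05 there were 1, 1, 3 and 1 of the 8 at 12, 18 and 24 months and in aged against young, beside 9.56%, 7.18%, 9.97% and 7.89% of all genes. At 24 months 4 of the 8 had a positive fold change. *Krt12* stood at 255500 ± 30300 normalized counts in young and 250900 ± 17590 at 24 months (SD, n = 5 each). The means of *Tkt* and *Clu* went from 14900 to 11960 and from 1913 to 1578, and that of *Slurp1* from 11010 to 13080. Of the keratinizing skin markers, *Krt2* never exceeded 2 reads in a library, *Lor* was read in 4 libraries, and *Krt10* was present at 67.9 ± 51.5 normalized counts in young and 136.1 ± 57.3 at 24 months (SD, n = 5 each; log2 fold change 1.19, limma adjusted p = 0.425). The library 18-month replicate 2 was least like the others, with a median correlation of log2 values across genes of 0.904, followed by young replicate 1 at 0.910, against 0.913 to 0.943 for the other 18. Young replicate 1 held the highest value of the young group for 5 of the 8 tested members and the lowest for the other 3.

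*Sprr1a* was higher in 24-month than in young corneal epithelium in every library, and it was the member whose change passed the thresholds. *Sprr1a* (chr3:92483954-92485881, minus strand, 2 exons) encodes a small proline-rich protein that cross-bridges the envelope and is also known as an injury-induced gene. The young libraries held 85.5, 119.9, 251.1, 134.6 and 265.6 normalized counts of *Sprr1a*, and the 12-month libraries 190.3, 388.0, 110.4, 245.5 and 149.1. Those at 18 months held 364.7, 262.7, 277.9, 383.4 and 370.4, and those at 24 months 598.7, 508.2, 510.8, 326.3 and 389.6. The lowest 24-month library thus lay above the highest young library, as did 4 of the 5 libraries at 18 months and 1 of the 5 at 12 months. More cells that express *Sprr1a* and more of its RNA per cell cannot be told apart in these bulk libraries.

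**Figure D1:**
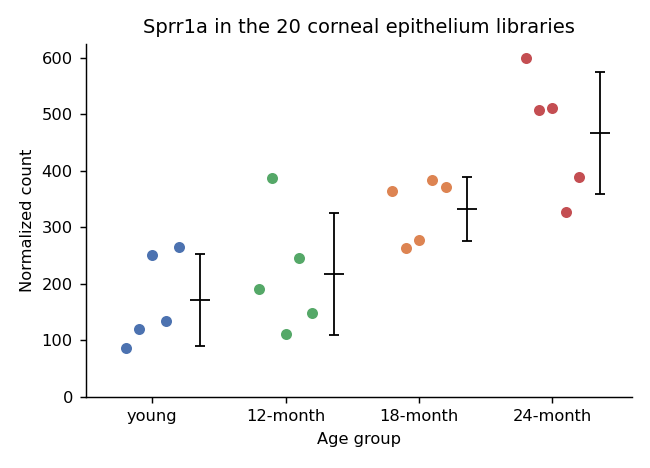
Normalized counts of *Sprr1a* in each of the 20 libraries by age group (5 points per group, in order of replicate number), with the group mean and SD beside the points. All 24-month points (326.3 to 598.7) lie above all young points (85.5 to 265.6), and the 12-month points overlap both the young and the 18-month range.

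The group means of *Sprr1a* were 171.3 ± 81.6, 216.7 ± 108.1, 331.8 ± 56.8 and 466.7 ± 108.1 normalized counts in young, 12-month, 18-month and 24-month mice (SD, n = 5 each). From young to 24 months *Sprr1a* rose 2.91-fold (log2 fold change 1.54, SE 0.29, 95% confidence interval 0.95 to 2.13, limma adjusted p = 0.00352), and the two-sided exact permutation test gave p = 0.00794, the smallest that 5 libraries against 5 allow. A gene was called where the adjusted p did not exceed 0.05 and the fold change reached 1.2 in either direction. By that rule 1 of the 8 tested members was called at 24 months, beside 0.78% of all 11288 genes, and the groups did not overlap for 1 of the 8 members beside 2.81% of all genes. In the test of any difference among the 4 ages, 1 of 8 members was called (*Sprr1a*, limma adjusted p = 0.00939), beside 0.904% of all genes.

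The intermediate ages fell between these ends. At 18 months the log2 fold change of *Sprr1a* from young was 1.07 (95% confidence interval 0.48 to 1.66, limma adjusted p = 0.107) and at 12 months 0.34 (-0.25 to 0.93, adjusted p = 0.791), neither of them called. The call at 18 months rested on single young libraries: it passed without young replicate 3 (log2 fold change 1.24, limma adjusted p = 0.0456) or without young replicate 5 (1.26, adjusted p = 0.0408). The log2 difference from 12 to 18 months was 0.73, with a 95% confidence interval of 0.14 to 1.32 that is not adjusted for the number of genes (limma adjusted p = 0.637, exact permutation p = 0.0635). From 18 to 24 months it was 0.48 (-0.11 to 1.07, limma adjusted p = 0.919, exact permutation p = 0.0556), and 4 of the 5 values at 24 months exceeded the highest at 18 months. Neither step between neighbouring ages was called. Between 12 and 24 months it was 1.21 (limma adjusted p = 0.0713), a value that crossed the threshold with voom on the recovered reads (1.22, adjusted p = 0.0481) and without young replicate 1 (1.21, adjusted p = 0.0248). For all aged libraries against young the log2 fold change was 0.98 (limma adjusted p = 0.133), and 10 of the 15 aged values exceeded the highest young value.

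Reads of the skin marker *Lor*, loricrin, the main envelope protein of cornified epidermis, were found in 4 of the 20 libraries. There were 90 reads in 12-month replicate 2, 40 in 18-month replicate 4, 10 in young replicate 5 and 6 in 12-month replicate 3. The first 3 of these libraries also held the highest *Sprr1a* value of their age (388.0, 383.4 and 265.6 normalized counts). The last, 12-month replicate 3, held the lowest of its age (110.4). The first 2 of the 4 held reads of *Flg2*, a filaggrin relative (17 and 13), and of *Krtdap*, a gene of differentiating keratinocytes (32 and 19). *Krtdap* also had 10, 5 and 1 reads in 12-month replicate 1, young replicate 3 and young replicate 2, which held no *Lor* reads. *Lor* had 0 reads in all 5 libraries at 24 months. The summed normalized counts of 5 skin markers (*Krt1*, *Krt10*, *Krt2*, *Lor* and *Krt79*) had a median of 172.3 there and 67.8 in young. *Krt2* and *Krt79* also had 0 reads at 24 months, so the sum there held *Krt10* and *Krt1* alone. The mean of *Krt10*, which was not called, was 136.1 there and 67.9 in young, and that of *Krt1* 13.4 and 12.6. Without the 4 libraries, a choice made after seeing the data, *Sprr1a* at 24 months stood 1.73 above young on the log2 scale (limma adjusted p = 0.000823), and it also passed at 18 months (1.201, adjusted p = 0.0499) and in aged against young (1.24, adjusted p = 0.0426). This fit left out no 24-month library and took out the highest young value (265.6), so a larger difference at 24 months was fixed in advance. Leaving out young replicate 5 alone already gave the call at 18 months (1.26, limma adjusted p = 0.0408). The fit is therefore no test of skin content. The part of skin cells in the *Sprr1a* values was not tested at any age.

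The close relatives of *Sprr1a* in the same cluster were at or near 0. *Sprr1b* (chr3:92436808-92438817), whose human counterpart is used as a marker of squamous metaplasia of the ocular surface, had 0 reads in all 20 libraries, and 3 reads, taken as the limit that a count of 0 allows, correspond to 0.279 to 0.448 CPM, depending on the library. *Sprr3* (chr3:92456502-92458720), a small proline-rich gene of wet stratified epithelia such as the esophagus, had 4 reads in all, 1 in young replicate 2 and 3 in 18-month replicate 4. Neither could be compared between ages. These limits cover counting error only. Reads of *Sprr1a* could be told from its relatives: none of the 426 windows of 75 bases in the last 500 bases of its transcript occurred in a transcript of another gene, and over those 500 bases it was 64.6% identical to *Sprr1b*.

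*Ivl* (chr3:92570899-92573790), which encodes involucrin, the early envelope scaffold, was low and did not pass the test at any age. Its means were 30.8 ± 7.9, 44.4 ± 21.4, 36.6 ± 17.7 and 49.2 ± 22.0 normalized counts in young, 12-month, 18-month and 24-month mice (SD, n = 5 each), from 9 to 77 reads per library. The ages overlapped, although at 24 months 3 of the 5 values exceeded the highest young value. The log2 fold change of *Ivl* at 24 months was 0.58 with a 95% confidence interval of -0.32 to 1.48 (limma adjusted p = 0.709), so that at this depth neither a rise of the size seen for *Sprr1a* at 18 months nor a small fall lies outside the interval. Within ages, the values of *Sprr1a* and *Ivl* had a weak correlation over the 20 libraries (Pearson r = 0.134, Spearman rho = 0.170, permutation p = 0.561 and 0.486).

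*Tgm1* and *Ppl* did not pass the test at any age either. *Tgm1* (chr14:55700009-55713921, 15 exons), the membrane-bound transglutaminase that joins the envelope proteins, averaged 62.7 ± 21.7 normalized counts in young, 55.4 ± 20.5 at 12 months, 54.5 ± 18.8 at 18 months and 53.5 ± 11.8 at 24 months (SD, n = 5 each). Young replicate 1 was at 24.1 and the other 4 young libraries at 69.2 to 74.9. The log2 fold change of *Tgm1* at 24 months was -0.15 (95% confidence interval -0.88 to 0.58, limma adjusted p = 0.934), and without young replicate 1 it was -0.46 (adjusted p = 0.837).

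*Ppl* (chr16:5086291-5132481, 22 exons) encodes periplakin, a plakin that ties the envelope to keratin filaments, and it was measured with little spread. The young libraries held 9144.3, 8482.8, 8381.7, 7695.8 and 6530.2 normalized counts of *Ppl*, against 6182.0 to 7426.7 at 18 months and 6221.2 to 7374.1 at 24 months. The young range thus reached from within the older ranges to above them. The log2 fold changes of *Ppl* from young were -0.09, -0.24 and -0.23 at 12, 18 and 24 months (limma adjusted p = 0.858, 0.587 and 0.422), with a 95% confidence interval of -0.44 to -0.03 at 24 months that is not adjusted for the number of genes.

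**Figure D2:**
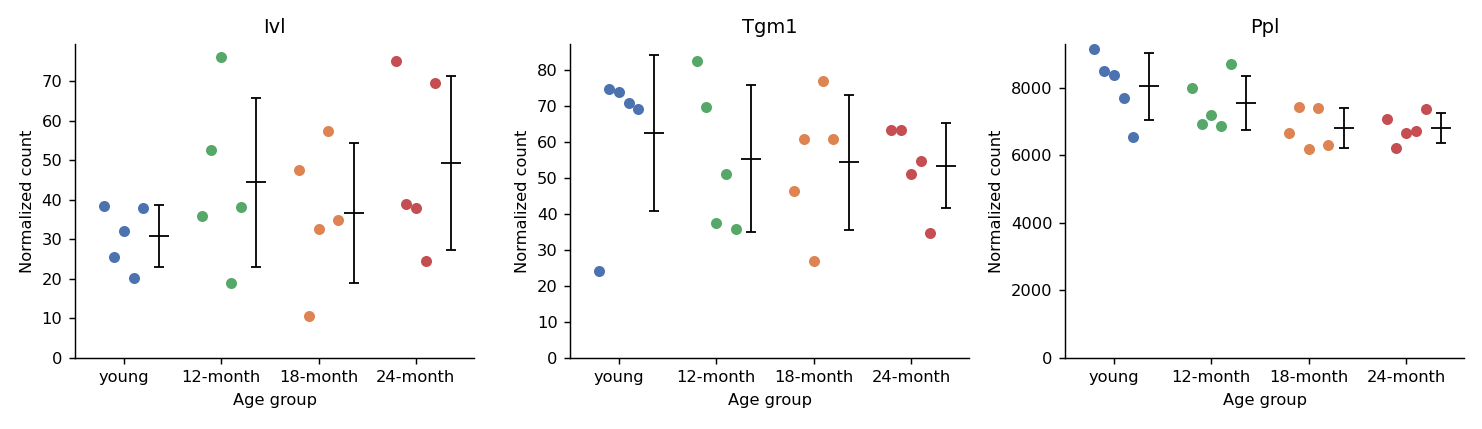
Normalized counts of *Ivl*, *Tgm1* and *Ppl* in each library by age group (5 points per group), with the group mean and SD. The ages overlap for all 3 genes, the young *Tgm1* mean is set apart from 4 of its points by the single library at 24.1, and the *Ppl* means run from 8047 in young to 6809 at 24 months.

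Of the stress keratins, none was called in any comparison with young: 0 of the 8 members were called at 12 months beside 0.532% of all genes, 0 at 18 months beside 0.673%, and 0 in aged against young beside 1.01%. Nor was any member called between the aged groups, where the share of all genes called was 0.195% for 24 against 12 months, 0.00886% for 18 against 12 and 0% for 24 against 18. At an unadjusted limma p under 0.05 there were 3 members at each of 12, 18 and 24 months and 4 in aged against young, beside 9.56%, 7.18%, 9.97% and 7.89% of all genes, and for 24 against 12, 18 against 12 and 24 against 18 months 2, 2 and 0 members, beside 14.7%, 7.43% and 5.31%. With voom on the recovered reads 0 members were called at 12 and 18 months and in aged against young, and 1 for 24 against 12 months (*Sprr1a*). The median log2 fold change over the 8 members was -0.12, -0.21 and 0.01 at 12, 18 and 24 months, and over all tested genes -0.01, -0.001 and 0.01.

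*Krt17* (chr11:100256215-100261029, minus strand, 8 exons), a type I keratin of wounded and activated epithelium, stood at lower means in every older group without passing the test. The young libraries held 1083.0, 402.4, 741.5, 400.5 and 381.3 normalized counts of *Krt17*. At 12 months the values were 328.1, 326.2, 128.6, 220.5 and 615.5, at 18 months 339.1, 265.1, 243.0, 316.2 and 529.9, and at 24 months 273.0, 304.1, 341.5, 99.2 and 385.9. At each older age 4 of 5 libraries lay below every young library, 12 of 15 in all, while 1 library per age fell inside the young range.

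The means of *Krt17* were 601.8 ± 308.2 in young and 323.8 ± 183.0, 338.6 ± 113.6 and 280.7 ± 109.9 normalized counts at 12, 18 and 24 months (SD, n = 5 each). Its log2 fold changes from young were -0.94, -0.75 and -1.10 (limma adjusted p = 0.337, 0.674 and 0.200), and -0.93 in aged against young (adjusted p = 0.155). The exact permutation test of *Krt17* alone gave p = 0.0159 at 24 months, which is not adjusted for the 8 members. Without young replicate 1, the highest library, the log2 fold change at 24 months was -0.85 (limma adjusted p = 0.466).

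*Krt6a* (chr15:101689928-101694305, minus strand, 9 exons), a type II partner of those keratins, lay lower at 12 and 18 months than in every young library, by a small amount. The young libraries held 91198.8, 64784.1, 64532.1, 64769.6 and 63935.3 normalized counts of *Krt6a*. The 12-month libraries held 46973.6 to 62376.4, the 18-month libraries 51809.6 to 61060.1, and the 24-month libraries 68448.0, 55278.5, 77665.0, 48232.9 and 60955.4. The other 4 young libraries were nearly equal beside young replicate 1, which stood far above them, and the 24-month libraries spread to both sides of the 4.

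The means of *Krt6a* were 69840 ± 11940, 57360 ± 6342, 58310 ± 3914 and 62120 ± 11430 normalized counts (SD, n = 5 each). At 12 and at 18 months *Krt6a* was the only member with no overlap between the older and the young values, beside 1.98% and 2.05% of all genes without overlap, and the exact permutation p was 0.00794 at both ages. Its log2 fold changes were -0.28, -0.25 and -0.17 at 12, 18 and 24 months, and it was not called (limma adjusted p = 0.503, 0.737 and 0.709). Without young replicate 1 these were -0.18, -0.15 and -0.07 (limma adjusted p = 0.544, 0.946 and 0.956), and the remaining 4 young libraries averaged 64505.3 ± 397.2 normalized counts (SD, n = 4).

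*Krt6b* (chr15:101676023-101680293, minus strand, 9 exons), the neighbouring paralog of *Krt6a*, had higher means in every older group without passing the test. Its means were 82400 ± 3580 in young and 91590 ± 15450, 89860 ± 7452 and 93150 ± 15820 normalized counts at 12, 18 and 24 months (SD, n = 5 each). At each older age 3 of 5 libraries lay above every young library and 1 lay below every young library. The log2 fold changes of *Krt6b* were 0.14, 0.12 and 0.16, with a 95% confidence interval of -0.10 to 0.43 at 24 months (limma adjusted p = 0.730), and were not called. The transcripts of these paralogs are alike, but their last 500 bases, where the reads of an oligo-dT library fall, were 69.8% identical against 94.1% for the rest of the transcript, and 0 of 426 windows of 75 bases were shared by either gene with another gene.

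**Figure D3:**
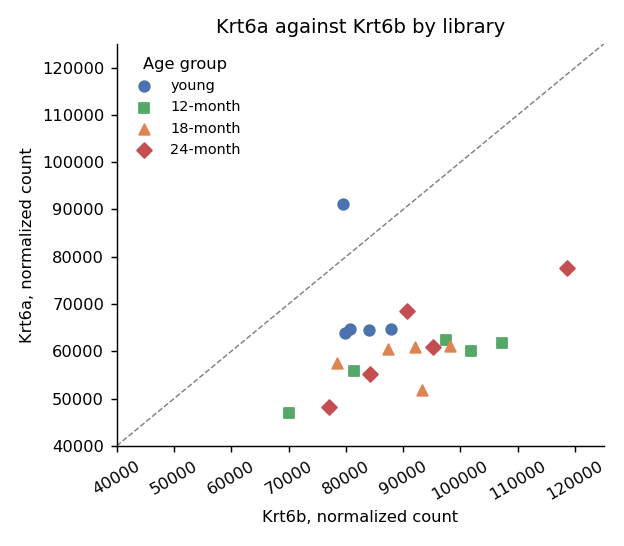
Normalized counts of *Krt6a* (vertical axis) against *Krt6b* (horizontal axis) in the 20 libraries, with a marker shape and colour for each age group. The dashed line marks equal counts. Young replicate 1 alone lies above the line (91198.8 against 79512.4), the other 4 young libraries form a tight group, and libraries with more *Krt6b* tend to hold more *Krt6a*.

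*Krt16* (chr11:100246091-100248902, minus strand, 8 exons), the type I keratin most often paired with keratin 6, varied more between animals than between ages. Normalized counts of *Krt16* were 396.8, 134.1, 315.1, 33.9 and 66.4 in the young libraries and 19.1 to 62.1 at 12 months. They were 140.3, 92.7, 73.8, 60.0 and 254.3 at 18 months and 2623.1, 246.4, 172.2, 26.1 and 43.3 at 24 months. A single library, 24-month replicate 1, lay far above the other 19, and the 12-month libraries were the most alike.

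The log2 fold changes of *Krt16* from young were -1.88, -0.27 and 0.35 at 12, 18 and 24 months, and 0 of them were called (limma adjusted p = 0.414, 0.988 and 0.931). The 95% confidence interval at 24 months ran from -1.25 to 1.95. Without 24-month replicate 1 the log2 fold change turned to -0.64 (limma adjusted p = 0.795), and the 24-month mean went from 622.2 ± 1122.0 (SD, n = 5) to 122.0 ± 105.5 normalized counts (SD, n = 4). In *Krt16*, 7.7% of the windows of 75 bases near the transcript end also occurred in the predicted gene Gm11597, so that reads there could be shared or discarded.

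**Figure D4:**
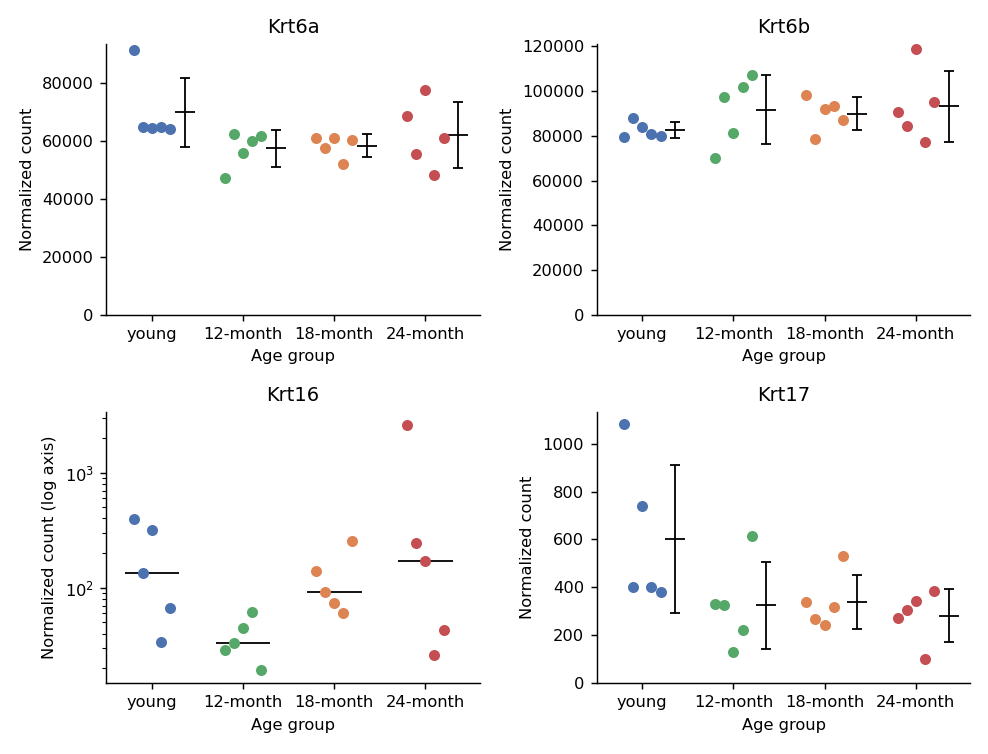
Normalized counts of the 4 stress keratins in each library by age group (5 points per group), with mean and SD for *Krt6a*, *Krt6b* and *Krt17* and with the median, on a log axis, for *Krt16*. The *Krt16* library at 2623.1, the *Krt6a* library at 91198.8 and the *Krt17* library at 1083.0 stand above the rest of their groups.

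**Figure D5:**
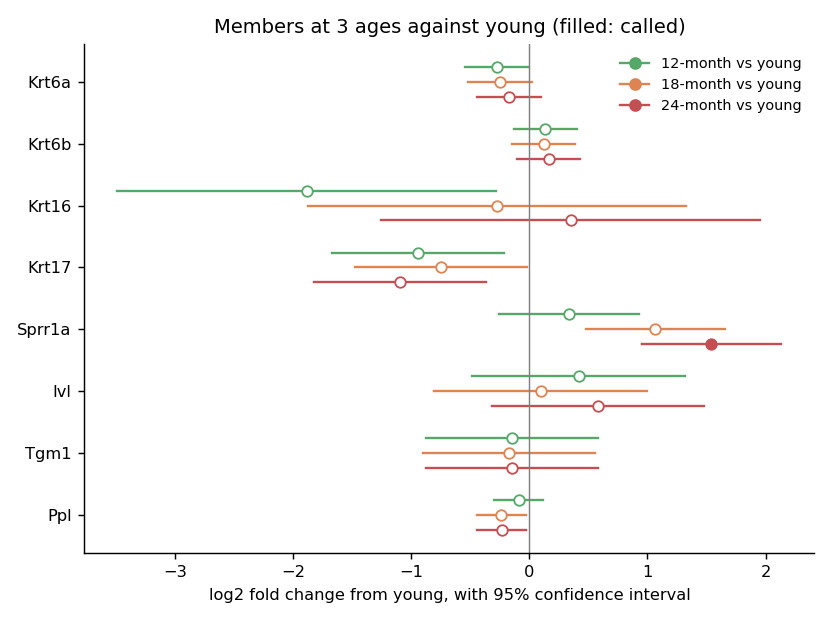
Log2 fold change from young at 12, 18 and 24 months for the 8 tested members, with the 95% confidence interval from limma, not adjusted for the number of genes (filled points passed the thresholds). *Sprr1a* at 24 months, at 1.54, is the filled point, and its interval at 18 months also lies above 0. The 3 *Krt17* intervals lie below 0, as do those of *Krt16* and *Krt6a* at 12 months and of *Ppl* at 18 and 24 months. The *Krt16* intervals are the widest.

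The members also differed in how far animals of the same age lay apart. The SD of log2 values within ages was 1.58 for *Krt16*, above all 200 tested genes nearest to it in level (median 0.45), and 0.70 for *Krt17*, above 199 of its 200 (median 0.28). For *Sprr1a* it was 0.54, above 192 of 200 (median 0.31). *Ivl*, *Tgm1*, *Krt6a*, *Krt6b* and *Ppl* had SDs of 0.69, 0.55, 0.20, 0.19 and 0.14 that exceeded those of 103, 81, 112, 98 and 50 of the 200 genes nearest in level. This spread includes animal, scrape and library preparation.

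Within ages the members did not vary as 1 block. Of the 28 pairs of tested members, 21 had a positive correlation over the 20 libraries after subtracting the age means, the median Pearson r was 0.139, and 0 pairs reached an adjusted permutation p of 0.05 by Pearson or by Spearman. For each pair, r was also taken without the 2 libraries farthest from the median of the gene named first. The paralogs *Krt6a* and *Krt6b* had the highest value (r = 0.622, rho = 0.556, permutation p = 0.0066 and 0.0225, adjusted 0.175 and 0.314, r = 0.682 without the 2). *Sprr1a* and *Tgm1*, a precursor and the enzyme that joins it, followed (r = 0.590, rho = 0.519, permutation p = 0.0125 and 0.0400, adjusted 0.175 and 0.352, r = 0.443 without the 2). *Krt6a* and *Tgm1* had the lowest (r = -0.559, rho = -0.522, permutation p = 0.0217 and 0.0213, adjusted 0.203 and 0.314, r = -0.410 without the 2). *Krt16* and *Krt17*, neighbours on chromosome 11, had r = 0.338 (rho = 0.383, permutation p = 0.222 and 0.137, adjusted 0.676 and 0.478, r = 0.209 without the 2).

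The genes most like each member over the 20 libraries, by Pearson r of log2 values after subtracting age means, were chosen from all tested genes as the highest values and so carry no test. For *Krt6a* they were *Sfr1* (0.875), *Klf4* (0.848), a transcription factor of the epithelial barrier, and *Gprc5a* (0.844), and for *Krt6b* *Nectin2* (0.850), Gm9573 (0.822) and *Glt28d2* (0.813). For *Krt16* they were *Krt14* (0.737), the basal type I keratin, *Zfp958* (0.719) and *Ptp4a2* (0.703), and for *Krt17* *Mob3a* (0.816), *Krt4* (0.765) and *Arl6ip6* (0.764). *Sprr1a* was closest to *Ccdc171* (0.763), *Stat6* (0.746) and *Zfp12* (0.728), *Ivl* to *Sirt3* (0.825), *Frs2* (0.808) and *Ska1* (0.802), *Tgm1* to *Nampt* (0.838), *Isy1* (the next in order) and *Ccdc171* (0.767), and *Ppl* to *Ubl5* (0.843), *Serinc2* (0.821) and *Fam20b* (0.813). These values share library, depth and normalization.

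The rest of the envelope program showed 1 call. Of 71 other cornified envelope and late differentiation genes listed, 26 were tested, and *Cdsn*, corneodesmosin, an adhesion protein of cornified cells, fell at 12 months (log2 fold change -2.91, limma adjusted p = 0.0354). It went from 70.0 ± 27.2 to 10.2 ± 6.3 normalized counts at 12 months, and stood at 17.2 ± 11.9 at 18 months (SD, n = 5 each), with a log2 fold change of -0.57 from young at 24 months (limma adjusted p = 0.825). With voom on the recovered reads the 12-month call was lost (adjusted p = 0.161), and *Cdsn* was called in aged against young instead (log2 fold change -1.93, adjusted p = 0.0301). Over all genes 0.532% were called at 12 months by limma. At an unadjusted limma p under 0.05 there were 8, 9, 4 and 8 of the 26 at 12, 18 and 24 months and in aged against young. The shares of all genes were 9.56%, 7.18%, 9.97% and 7.89%. The median log2 fold change of this list was -0.02, -0.13 and 0.05 at 12, 18 and 24 months, beside -0.01, -0.001 and 0.01 over all genes. Of the 26, 12, 9 and 13 had a positive fold change at these ages, so the median does not show the changes of single genes. *Evpl*, envoplakin, the plakin partner of *Ppl*, had a log2 fold change of -0.12 at 24 months (limma adjusted p = 0.783).

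Of 22 other keratins, 16 were tested, and those called all fell. By limma 2 were called at each of 12, 18 and 24 months, beside 0.532%, 0.673% and 0.78% of all genes. *Krt4*, a keratin of the wet-surfaced conjunctiva, fell at 12, 18 and 24 months (log2 fold change -1.07, -1.09 and -1.54, limma adjusted p = 0.000707, 0.000624 and 2.17e-06), and *Krt19*, another conjunctival keratin, fell at 12 and 18 months (-0.78 and -0.77, adjusted p = 0.0391 and 0.0379, and 0.0526 at 12 months with voom). *Krt75*, a hair follicle keratin, fell at 24 months (-2.09, limma adjusted p = 0.00898). *Krt7*, a keratin of simple epithelia, was called with voom alone, in aged against young (-0.65, adjusted p = 0.032, and 0.0773 with limma on the log2 values). *Krt4* is also among the genes most like *Krt17*, and both stood lower in the older groups, *Krt17* without a call. Over all 8 conjunctival markers the summed normalized counts were 43120 to 64340 in young libraries and 37730 to 44460 at 24 months. Most of this sum was *Krt13* and *Muc4*, neither of them called, with means from 32000 to 24600 and from 16390 to 13390. Of the 8, 6 were tested, and 1 of these had a positive fold change at 24 months. *Muc5ac*, the goblet cell mucin, had maxima of 2, 0, 31 and 16 reads per library in order of age. The keratocyte markers moved too: 4 of 8 fell (*Col1a1*, *Col1a2*, *Col3a1* and *Dcn*) and 1 rose (*Aldh1a1*) at 24 months. From young to 24 months the means of the 4 went from 928.5 to 73.1, 1204 to 138.4, 259.0 to 30.4 and 1022 to 287.0 normalized counts. That of *Aldh1a1* went from 1220 to 1919. The sums of all 8, 3167 to 5802 in young libraries and 2015 to 3374 at 24 months, therefore understate the fall of the 4. What part these cells had in the values of *Krt17*, *Krt6a* and *Sprr1a* was not tested.

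The listed regulators and stress genes gave 0 calls in all 7 comparisons. Of 28 keratin and envelope regulators 27 were tested, among them the most abundant, *Klf4*, *Ehf* and *Klf5*, with log2 fold changes of -0.24, 0.11 and -0.23 at 24 months (limma adjusted p = 0.641, 0.851 and 0.539). The AP-1 subunit *Junb* had 0.56 (limma adjusted p = 0.0773), chosen for mention after its value was seen. Of 26 alarm and injury genes 12 were tested, led in abundance by *Hbegf*, *Il1rn* and *Il1f9* with log2 fold changes of 0.26, 0.38 and -0.17 at 24 months (limma adjusted p = 0.606, 0.363 and 0.931). Of 14 early stress genes 11 were tested, led by *Hspa1b*, *Ier3* and *Hspa1a* with 0.60, 0.16 and -0.76 (none below a limma adjusted p of 0.109). At an unadjusted limma p under 0.05, 6, 2 and 3 genes of the regulator, alarm and stress lists passed at 24 months (7, 2 and 3 with voom). The share of all genes by limma was 9.97%. In the same order 2, 3 and 3 passed at 12 months beside 9.56%, and 3, 2 and 2 at 18 months beside 7.18%. In aged against young 5, 2 and 2 passed beside 7.89%. With voom on the recovered reads 1 gene of these lists was called, *Hspa1a*, in aged against young (adjusted p = 0.0334, log2 fold change -0.65).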

How the data were processed

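Corneal epithelium of 20 mice was removed by debridement, and libraries were made with an oligo-dT primed Lexogen kit from 100 ng of total RNA so that reads fall near transcript ends. The authors used cutadapt for trimming, STAR for alignment against GRCm38, HTSeq for counting and the relative log expression method of DESeq2 for normalization. Versions, the treatment of reads with several positions and the strand setting were not given in the sources used here. The table deposited by the authors holds log2 of the normalized count plus 1 per gene and library. The size factor of each library (0.7603 to 1.3343) was estimated from the spacing of its own smaller values. Multiplying by this estimate gave whole reads for 100% of values within 0.1 read, and the values used for the estimate are among them. The other 3 deposited tables hold the authors' own comparisons (fold changes and p-values) and were not used.

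The log2 values were fitted with limma 3.58.1 in R 4.3.3, with the prior variance following expression (trend option), for the 11288 genes averaging 10 or more normalized counts, and p-values were adjusted by Benjamini-Hochberg over all of them. Fold changes are therefore on the log2(normalized count + 1) scale, which understates changes of low genes. One fit of the 4 ages gave the pairwise comparisons and a moderated F test over the 3 contrasts with young, and a fit of 2 groups gave aged against young. Single members were checked with two-sided exact permutation tests. Correlations used 100000 permutations within ages and Benjamini-Hochberg adjustment over the 28 pairs of tested members. Python 3.11.15, pandas 2.3.3, scipy 1.17.1 and matplotlib 3.10.9 were used, and biopython 1.88 for identities between sequences. Gene positions came from RefSeq and transcripts from GENCODE, both on GRCm38. The fits were tested on simulated data.

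The members and gene lists were chosen with earlier results of these data known. Named beside the members were, of each list, every gene called by limma in any comparison or, where none was called, the 3 with the largest mean count and the 3 genes most like each member. *Evpl*, *Junb*, *Krt7*, *Flg2*, *Krtdap* and the markers of cell types (such as *Krt12*, *Krt10*, *Lor* and *Col1a1*) were outside that rule and chosen after their values were seen. Alternatives were quantile normalization, no filter, a filter at 50, pseudocounts of 0.1 and 10, fits of the compared groups alone, a block for replicate number, other fold thresholds (none, 1.5), voom on the recovered reads and leaving out each library. The ratio of *Krt6a* to *Krt6b* and the fit without libraries that hold *Lor* reads were chosen after seeing the data. Each library is 1 animal, so that p-values measure the spread between animals together with that of scraping and library preparation.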

Additional observations from a re-analysis of the deposited data

Results flagged for a closer look

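In 3 of the 32 groups of 5 libraries examined (8 members at 4 ages), a single library lay far from the other 4 by Dixon's criterion. Chance alone meets it in about 1 group in 20 if values are normally distributed. It was applied to normalized counts and not to the log2 values of the tests, so that rate need not hold for skewed genes such as *Krt16*. *Krt16* was at 2623.1 normalized counts in 24-month replicate 1 and at 26.1 to 246.4 in the other 24-month libraries. *Krt6a* was at 91198.8 in young replicate 1 and at 63935.3 to 64784.1 in the other young libraries. *Tgm1* was at 24.1 in that same young library and at 69.2 to 74.9 in the others. What set these libraries apart was not tested.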

How the results depend on the processing

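The rise of *Sprr1a* at 24 months was called under each of the 8 alternative fits (log2 fold change 1.48 to 1.55, adjusted p 0.00234 to 0.0129, limma) and without each of the 20 libraries (1.33 to 1.73, adjusted p 0.00142 to 0.0189). Over the alternatives 955 of 968 values of single members from the 35 member comparisons kept direction and call. Many of these could not move. Between 2 ages, leaving out a library of another age or adding the replicate block did not change the fold change. Most members were also far from a call, so this count says little about robustness. The number of members called went from 0 to 1 at 18 months against young (range 0 to 1 over left-out libraries, 1 without young replicate 3 or 5), in aged against young (0 to 1, 1 without 12-month replicate 3, *Sprr1a* 1.09, adjusted p = 0.0335) and between 24 and 12 months (0 to 1, 1 without young replicate 1, and 1 with voom), each time through *Sprr1a*. Directions turned only for members without a call and only on leaving out libraries. At 18 months *Krt16* ranged from -0.75 to 0.12 (0.123 without young replicate 1, 0.04 without replicate 3), *Ivl* from -0.11 to 0.47 (-0.042 without young replicate 4, -0.044 and -0.11 without 18-month replicates 1 and 4) and *Tgm1* from -0.48 to 0.05 (0.053 without 18-month replicate 3). At 24 months *Krt16* ranged from -0.64 to 1.01 (-0.129 without young replicate 4, -0.64 without 24-month replicate 1). Over left-out libraries the genes called ranged from 38 to 96 at 12 months, from 54 to 96 at 24 months (88 in all libraries, 54 and 57 without 24-month replicates 3 and 4), from 59 to 114 for any difference among ages (102, and 59, 65 and 64 without young replicates 2, 3 and 5) and from 0 to 84 between 24 and 12 months. Among the other settings, genes called in all moved by over 1.5 times at 12 months against young (60, to 39 with only the groups compared and 38 with voom) and between 24 and 12 months (22, to 0 without the filter, 35 with a filter at 50 and 11 with only the groups compared), and the single call between 18 and 12 months was lost under 6 settings. Without the 4 libraries with *Lor* reads, the members called were 1 at 18 months, 1 in aged against young and 1 at 24 months, each *Sprr1a*, *Ivl* at 18 months turned to -0.027, and the genes called fell to 19, 39 and 47 at 12, 18 and 24 months, with 4, 3, 4 and 5 libraries per age left. Young replicate 5, whose removal alone gave the *Sprr1a* call at 18 months, was among the libraries left out. The cause was not tested.

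With the replicate number as a block (replicate block), *Sprr1a* at 24 months stayed called (1.54, limma adjusted p = 0.0129), 0 members were called at 12 and 18 months and in aged against young, and the calls over all genes between 24 and 12 months went from 22 to 11. The numbers mark different animals, and same-numbered libraries did not deviate together: over 30 pairs the median correlation was 0.008 (range -0.303 to 0.159), beside 0.004 for different numbers, and 1 of 20 libraries correlated best with its own number. Of 28 correlations, 6 changed sign without the 2 libraries farthest from the median of the first gene of the pair.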

Other observations

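The ratio of *Krt6a* to *Krt6b* within each library was chosen after the values of both genes were seen. The ratio was 1.147, 0.737, 0.767, 0.803 and 0.801 in the young libraries. It was 0.671, 0.640, 0.686, 0.589 and 0.575 at 12 months, 0.622, 0.732, 0.661, 0.555 and 0.692 at 18 months, and 0.755, 0.657, 0.654, 0.626 and 0.641 at 24 months. Of the 15 aged libraries 14 lay below every young one. The geometric mean was 0.840 in young and 0.648 in aged libraries, a log2 difference of -0.373 (two-sided exact permutation p = 0.000129), and without young replicate 1 the difference was -0.261 (exact permutation p = 0.000516). The 3 older groups differed from young by -0.413, -0.370 and -0.336 in order of age (log2, exact permutation p = 0.00794, 0.00794 and 0.0159). Because the ratio was picked from these same libraries, its p-values carry no independent weight, and ratios of other gene pairs were not tested. Neither gene was called in any comparison.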
